A study of Mus musculus with 23 samples.

Results

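After 1 h of Kdo2-Lipid A (KLA), macrophages lacking NCoR had 756 p65 peaks of middle height for which the wild type list had no peak centred within 500 bp. These knockout-only sites are the subject here. They were chosen by 2 measured values in the KLA lists, a height of 50 or more in knockout cells and a distance of more than 500 bp from their centre to that of any wild type KLA peak. Height is the normalized tag count, the number of sequenced tags at the peak per 10000000 tags of the library. Of 11526 knockout KLA peaks of that height, 756 (6.56%) met the distance criterion and 10770 had a wild type KLA peak within 500 bp. The whole knockout KLA list held 22585 peaks, and the 5 peak lists of the series together held 58278.

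p65 (RelA) is a subunit of NF-κB, which IκB proteins hold in the cytoplasm of resting cells and which enters the nucleus when a Toll-like receptor is engaged. KLA is the lipid A part of endotoxin and engages TLR4, so that within minutes p65 binds enhancers and promoters of inflammatory genes, often at positions already opened by macrophage lineage factors. NCoR is a corepressor that brings histone deacetylase 3 to genes bound by nuclear receptors such as the LXRs and by other factors, and part of the inflammatory genes of macrophages is kept low by such complexes before a stimulus.

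All p65 samples were thioglycollate-elicited peritoneal macrophages of male C57BL/6 mice aged 6 to 8 weeks, and all mice carried floxed NCoR alleles. Cells of every group, the LXRβ line included, were kept overnight in 0.5% serum before any treatment. The groups were KLA-treated knockout cells (NCoR fl/fl with Lys M-Cre +/-, 100 ng/ml KLA for 1 h), KLA-treated wild type cells (NCoR fl/fl with Lys M-Cre -/-, the same treatment), and untreated knockout and untreated wild type cells of the same genotypes. Lys M-Cre acts in myeloid cells, and the amount of NCoR left in the knockout cells cannot be read from peak lists. LXRβ, a nuclear receptor for oxysterols, was mapped in RAW264.7 cells, a mouse macrophage line, that carried biotin-tagged LXRβ and had been treated with 1 µM of the LXR agonist GW3965 for 2 h. With 1 library for each group, differences could not be set against a spread between replicates and no test between groups was possible. Intervals are exact at 95% and cover counting error only, and the tags of a peak were not checked for being separate molecules.

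The KLA libraries held 1673506 tags (knockout) and 2120392 tags (wild type), and the untreated libraries 786121 tags (knockout) and 777228 tags (wild type). A single tag was worth a height of 5.98 in the knockout and 4.72 in the wild type KLA library. A height of 50 therefore meant 9 or more tags in knockout cells, while the caller's tag threshold in wild type cells was 5 tags, a height of 23.6, and the lowest wild type height listed was 18.9. An input library, of untreated wild type macrophages, was used to call the knockout KLA peaks and none to call the wild type KLA peaks. The caller removed candidates that were less than 4-fold above the surrounding 10 kb, 3116 in the knockout and 5916 in the wild type KLA library. A site missing from the wild type list may thus have been unbound, bound below 5 tags, or removed by this local criterion, and the list alone cannot tell these apart. Positions are on mouse build mm9 as deposited. No gene annotation or genome sequence of that build was used here, so sites are named by position.

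The knockout-only sites were of modest height. Their heights ran from 53.8 to 161.3 with a median of 59.8, against 53.8 to 699.1 with a median of 83.7 at the knockout peaks that also had a wild type peak. A total of 557 (73.7%) rested on 9 to 11 tags, 40 on 15 tags or more, and 8 on 18 or more. At 9 tags the 95% Poisson interval of a height of 53.8 ran from 24.6 to 102.1, and its lower end lay close to the wild type calling limit of 23.6. These values come from the selection itself and are given as description.

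The share of knockout KLA peaks without a wild type peak was lower where there were more tags. It was 18.0% (95% Clopper-Pearson interval 16.1 to 19.9) of the 1626 peaks with 9 tags. Of peaks with 10 or 11 tags it was 10.9% (9.71 to 12.2), and of those with 12 to 14 tags 6.62% (5.66 to 7.69). It was 2.18% (1.50 to 3.07) at 15 to 17 tags and 0.317% (0.137 to 0.625) at 18 to 29 tags. None of the 1086 peaks with 30 or more tags was knockout-only, which allows a share of up to 0.339% by the same interval. The tallest knockout KLA peaks, those of 30 tags or more, thus all had a wild type entry.

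**Figure D1:**
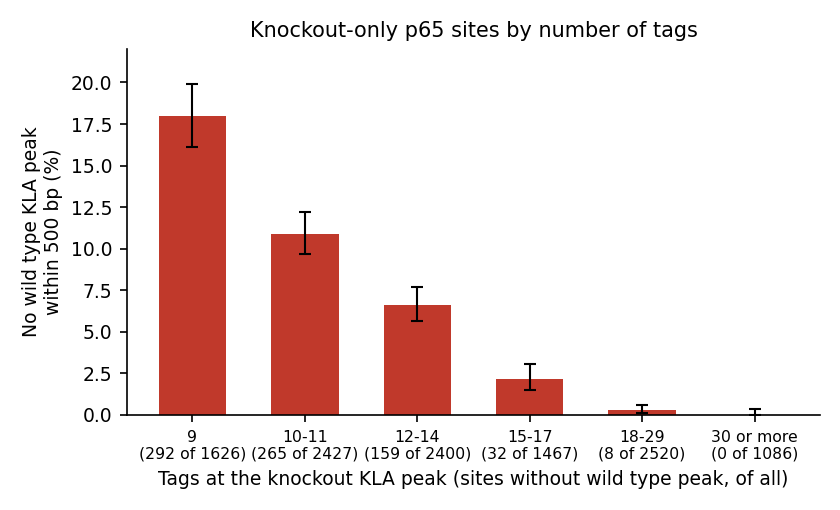
Share of knockout KLA p65 peaks with no wild type KLA peak centre within 500 bp (y axis, percent) in 6 classes of tag number (x axis). Bars are shares and error bars exact 95% Clopper-Pearson intervals. The share is 18.0% at 9 tags and 0 at 30 tags or more.

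At both limits of the selection the sites ran on without a gap. A total of 292 sites had the lowest height that qualified, 53.8. The 3 of them that came last by position lay on chromosome X, from 155609647 to 155609791, from 156176766 to 156176910 and from 163768490 to 163768634. Their nearest wild type KLA peaks were 15814, 1441 and 4355 bp away. A further 470 peaks without a wild type partner had the next lower height, 47.8, beginning with the peaks on chromosome 1 from 13583492 to 13583636, from 28104945 to 28105089 and from 37045440 to 37045584. By distance, the site nearest the limit was on chromosome 18 from 46617512 to 46617656 (65.7), with a wild type peak of 89.6 centred 503 bp away. The peak just outside lay on chromosome 2 from 169984305 to 169984449 (65.7), and its wild type partner of 75.5 was centred exactly 500 bp off. Most matched peaks were far inside the limit: 9862 of 10770 (91.6%) had their wild type partner within 100 bp, and 126 had it between 300 and 500 bp. Of the matched peaks 242 (2.25%) had a wild type height of 5 tags or less. Membership still depended on low wild type peaks. The number of knockout-only sites rose from 756 to 1292 when wild type peaks below the lowest knockout height of 29.9 were not counted.

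The 10 tallest knockout-only sites each had between 1 and 5 other knockout KLA peaks within 10 kb. The tallest, on chromosome 11 from 23670888 to 23671032, had a height of 161.3 (95% Poisson interval 106.3 to 234.7) in KLA-treated knockout cells. A wild type KLA peak of 287.7 was centred 519 bp away, just past the distance limit. An untreated wild type peak of 128.7 lay 110 bp away, and an untreated knockout peak of 89.0 lay 545 bp away. This position was thus listed in untreated wild type cells, and the KLA-treated wild type list had its peak beside it.

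The next pair of sites both reached 155.4 (101.5 to 227.6). The one on chromosome 10 from 37053787 to 37053931 lay 4337 bp from a knockout KLA peak of 579.6 and 3347 bp from a wild type peak of 188.6. The one on chromosome 8 from 87504929 to 87505073 was 1 of 6 knockout KLA peaks within about 10 kb. The other 5 of these, of 209.1, 161.3, 101.6, 95.6 and 149.4, each had a wild type peak beside them, of 325.4, 160.3, 108.5, 117.9 and 155.6. In that group the site from 87504929 was the single knockout peak with no wild type peak within 500 bp. Its fold over local signal was 5.09, and at the neighbouring wild type peaks it was between 4.52 and 19.47.

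The site on chromosome 5 from 93697968 to 93698112 reached 137.4 (87.1 to 206.2) in KLA-treated knockout cells, and the nearest wild type KLA peak had 56.6 at 805 bp. The nearest untreated p65 peaks were 767199 bp away in knockout and 3732794 bp away in wild type cells. Chromosome 1 held both the fifth and the seventh site, 6916 bp apart, from 58783951 to 58784095 (125.5) and from 58777035 to 58777179 (113.5). Between and beside them 3 other knockout KLA peaks of 239.0, 131.5 and 77.7 matched wild type peaks of 264.1, 155.6 and 94.3. A wild type peak of 66.0 at 58779380 had no knockout counterpart, so single-genotype entries ran both ways within this group. An untreated knockout peak of 89.0 lay 893 bp from the seventh site, and the nearest in untreated wild type cells 1859723 bp.

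The remaining sites among the 10 tallest were on chromosome 11 from 83345723 to 83345867 (125.5), chromosome 2 from 128291495 to 128291639 (107.6), chromosome 10 from 87292868 to 87293012 (101.6) and chromosome 12 from 17664429 to 17664573 (101.6). Wild type KLA peaks of 268.8, 306.5, 37.7 and 235.8 lay 1681, 1907, 660 and 974 bp from them. A further 7 sites shared the height of 101.6 with the last 2 and were placed after them by chromosome name. None of the 10 tallest was more than 3347 bp from a wild type KLA peak.

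**Figure D2:**
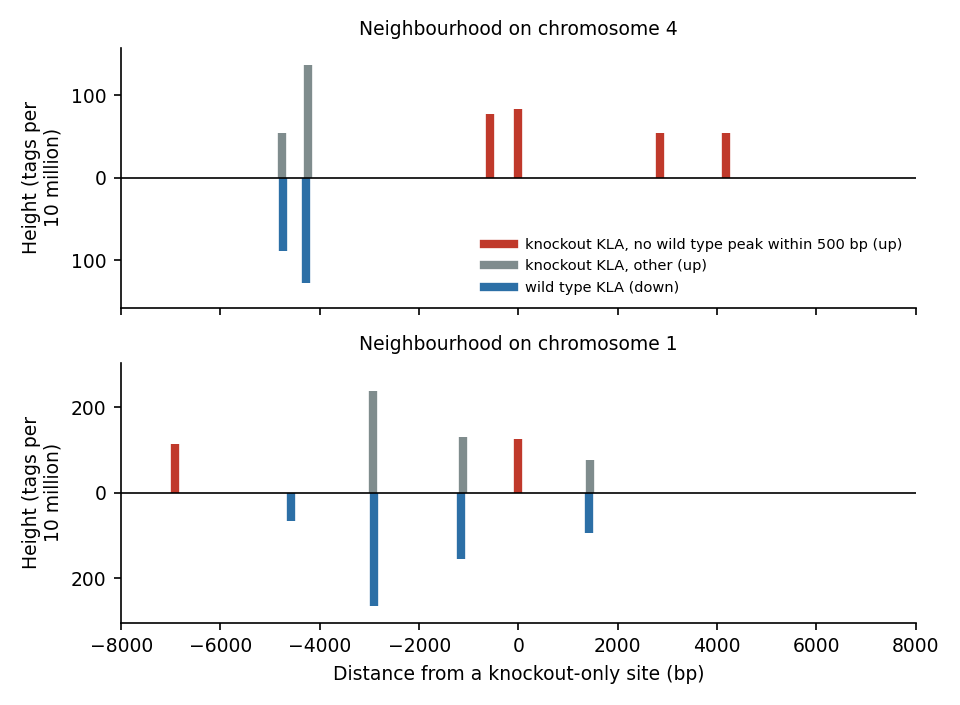
KLA p65 peaks within 8000 bp of a knockout-only site on chromosome 4 (top, site from 43982267) and on chromosome 1 (bottom, site from 58783951). The x axis is the distance from that site in bp and the y axis the height in tags per 10000000, drawn upward for knockout and downward for wild type cells. On chromosome 4 the 4 knockout-only sites, of 53.8 to 83.7, stand to the right of a pair of peaks listed in both genotypes. On chromosome 1 the 2 knockout-only sites, of 113.5 and 125.5, stand among 3 shared peaks.

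Knockout-only sites were close to wild type peaks over the whole set. A wild type KLA peak was centred within 10 kb of 607 of them (80.3%, 77.3 to 83.1), and the median distance to the nearest one was 2604 bp. By distance, 158 sites had it at 500 to 1000 bp, 159 at 1000 to 2000 bp, 209 at 2000 to 5000 bp and 81 at 5000 to 10000 bp. The matched peaks had a wild type KLA peak other than their own partner, beyond 500 bp and within 10 kb, in 71.0% (70.1 to 71.8). With the matched peaks weighted to the same tag numbers as the knockout-only sites this share was 66.6%. The selection used wild type positions, so these shares are descriptions.

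The wild type neighbours were mostly shared sites. At 426 of the 607 sites (70.2%) the nearest wild type peak had its own knockout peak within 200 bp. Over the 416 distinct neighbours of that kind the median height was 83.7 in knockout and 84.9 in wild type cells, and the median ratio of knockout to wild type was 1.05 (order-statistic interval 1.00 to 1.09). Of all 30021 wild type KLA peaks, 16785 had a knockout peak within 200 bp. Their median heights were lower than those of the neighbours, 59.8 in knockout and 56.6 in wild type cells, and the median ratio was 1.09 (1.08 to 1.09). Next to knockout-only sites, then, the shared peaks had knockout heights much like those of wild type cells.

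The share with neighbours in their own list depended on the wild type floor. Another knockout KLA peak lay within 10 kb of 572 knockout-only sites (75.7%, 72.4 to 78.7), against 67.1% (66.2 to 68.0) of matched peaks, or 62.5% after weighting to equal tag numbers. Over all 11526 peaks of 50 or more it was 67.7%. The median distance to the next knockout KLA peak was 3058 bp at knockout-only sites and 4941 bp at matched peaks. A taller knockout KLA peak stood within 10 kb of 402 knockout-only sites (53.2%, 49.5 to 56.8), against 29.0% (28.2 to 29.9) of matched peaks and 35.0% after weighting. Among the 572 with a neighbour, the tallest neighbour had a median height of 101.6. When wild type peaks counted as partners only at or above the lowest knockout height of 29.9, the order turned, with another knockout KLA peak within 10 kb of 62.3% of 1292 knockout-only sites, against 68.4% (67.5 to 69.3) of matched peaks and 64.7% after weighting. The share with a taller one was then 37.9% (35.3 to 40.6), against 29.7% (28.8 to 30.6) and 37.2% after weighting. With a lowest height of 40 the shares with another knockout KLA peak were 64.1% at knockout-only sites and 64.3% at matched peaks, and 57.9% after weighting. These settings were applied to matched peaks after seeing the data.

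The fold over local signal, the caller's ratio of tag density at the peak to that of the surrounding 10 kb, was lower at knockout-only sites when every listed wild type peak counted as a partner. Its median was 18.9 (17.5 to 20.4), against 31.1 (30.8 to 31.8) at matched peaks. Among peaks with 9 to 14 tags the medians were 19.4 (716 knockout-only sites) and 28.2 (5737 matched peaks), so the difference was also there at like tag numbers. Values under 10 were found at 203 knockout-only sites (26.9%, 23.7 to 30.2) and 6.95% (6.48 to 7.45) of matched peaks, 8.90% after weighting. All 203 had a wild type KLA peak within 10 kb, but fold and distance both depend on the surroundings of a site and are not independent. With wild type partners held to 29.9 or more, the medians were 29.8 (27.4 to 31.6) at the 1292 knockout-only sites and 30.7 (29.9 to 31.1) at matched peaks, and their intervals overlapped. Values under 10 were then found at 15.7% (13.8 to 17.8) and 7.32% (6.82 to 7.84), and 10.0% after weighting.

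**Figure D3:**
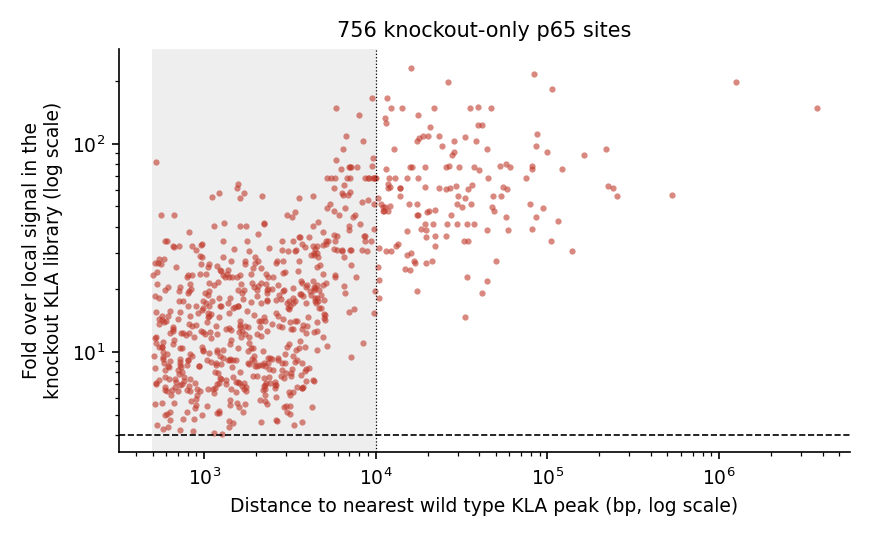
Fold over local signal in the knockout KLA library (y axis, log scale) against distance to the nearest wild type KLA peak in bp (x axis, log scale) for the 756 knockout-only sites, 1 point each. The dashed line is the 4-fold limit of the caller, and grey marks distances from 500 bp to 10 kb. Sites within 10 kb of a wild type peak have a median of 14.8 and the 149 farther sites a median of 57.0. Fold and distance both depend on the surroundings of a site and are not independent.

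The lowest wild type height the local criterion could let through was estimated from the wild type neighbours. The height of a listed peak divided by its fold over local signal gives the local level there, and 4 times that level is the height the caller required. This use of the neighbour's level was chosen after seeing the data and assumes that the level holds at the site itself. At the 526 knockout-only sites with a wild type KLA peak within 5000 bp, the required wild type height had a median of 14.9 and quartiles of 9.08 and 24.5. It exceeded the 5-tag limit of 23.6 at 149 of the 526 (28.3%). Calculated from the knockout level at the sites themselves, the height required in knockout cells had a higher median, 19.3. The neighbour's level may thus be too low for the sites. The knockout height of the 526 sites had a median of 59.8. Among the 10 tallest sites the required wild type height ran from 8.57 to 131, and at each it was below the knockout height. It was 131 on chromosome 10 from 37053787 (knockout height 155.4), 94.6 on chromosome 8 (155.4) and 35.3 at the tallest site on chromosome 11 (161.3). Both the sites and the neighbours had passed the local criterion to be listed, and its part in the missing wild type entries was not tested.

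Away from wild type peaks the sites were lower. A total of 149 (19.7%, 16.9 to 22.7) had no wild type KLA peak within 10 kb, a subset formed after seeing the data. Their median height was 53.8 and their highest 89.6, and 124 of the 149 rested on 9 to 11 tags. Their fold over local signal had a median of 57.0 and was never under 14.7. For 125 of them no other knockout KLA peak lay within 10 kb either. The fold is taken over the surrounding 10 kb, so their high fold values are not independent of how the subset was formed. The tallest, on chromosome 12 from 110175219 to 110175363, had 89.6 (50.2 to 147.8) in knockout cells and its nearest wild type KLA peak, of 33.0, 17896 bp away. Next came 6 sites of 83.7 each (45.7 to 140.4), of which 4 lay on chromosome 13 from 54693033, chromosome 3 from 88337931, chromosome 5 from 125696530 and chromosome 7 from 150281610. Their distances to a wild type KLA peak were 13448, 12163, 10269 and 11844 bp. The other tied sites were on chromosome 8 from 11497515, at 20673 bp, and on chromosome 9 from 62456373, at 15950 bp. The most distant site, on chromosome 5 from 81506175 to 81506319 with 53.8, had no wild type KLA peak within 3692911 bp. Only 13 of the 756 were more than 100 kb from a wild type KLA peak.

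Knockout-only sites fell into 676 windows of 100 kb, of which 602 held 1 site, 69 held 2 and 5 held 3 or more. Another knockout-only site lay within 10 kb of 59 (7.80%). Only 6.56% of knockout KLA peaks of 50 or more were knockout-only, and the share expected at that frequency was not computed. The densest window, on chromosome 4 from 43900001 to 44000000, held 4 sites, from 43981701 (77.7), 43982267 (83.7), 43985115 (53.8) and 43986440 (53.8). Just before them lay 2 knockout KLA peaks of 53.8 and 137.4, beside wild type peaks of 89.6 and 127.3, and beyond those the wild type list had no peak at the 4 sites. The whole window held 6 knockout and 5 wild type KLA peaks. Further wild type peaks thus stood elsewhere in it, with none of these 6 knockout peaks beside them. Neither untreated list had a peak in that window, and an LXRβ peak of 12.7 was centred 4118 bp from the first of the 4. The shared pair at its edge was not uniformly higher in either genotype.

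The window of chromosome 12 from 56500001 held 3 knockout-only sites among 13 knockout and 12 wild type KLA peaks. A pair of them, from 56566683 and from 56568757, had 95.6 each and lay 724 and 750 bp from wild type peaks of 141.5 and 268.8. Their fold over local signal was 4.24 and 4.74, close to the caller's limit of 4. The remaining one, from 56558776 (53.8), stood 7134 bp from a wild type peak, with a fold of 26.07. On chromosome 11 from 100500001 the 3 sites had 53.8, 65.7 and 77.7, with folds of 91.26, 23.69 and 32.95. By chromosome, the share of knockout peaks of 50 or more that were knockout-only ran from 3.26% (1.79 to 5.40) on chromosome 16 to 9.15% (6.77 to 12.0) on chromosome 15, with 7.64% (3.87 to 13.3) on X.

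Input signal was low at these sites. The knockout list gave 5 of the 756 (0.661%, 0.215 to 1.54) 1 or more scaled input tags, with a highest value of 2.7, against 0.836% (0.672 to 1.03) of matched peaks and 0.824% of all peaks of 50 or more. The focus ratio, the share of tags on the side of the peak their strand predicts, had a median of 0.786 at knockout-only sites and 0.769 at matched peaks. The caller had removed 1902 knockout KLA candidates that were less than 4-fold over input, so low input relative to the peak was required of every listed peak. The focus ratio was similar in both sets, while the fold over local signal was lower at knockout-only sites, as given above.

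Before KLA, p65 was listed at few knockout-only sites. An untreated knockout peak was centred within 500 bp of 34 (4.50%, 3.13 to 6.23), against 733 (6.81%, 6.34 to 7.30) of the matched peaks and 6.65% of all knockout KLA peaks of 50 or more. Weighted to equal tag numbers, the matched share was 5.00%, which lies inside the interval of the knockout-only sites. An untreated wild type peak was there at 8 (1.06%, 0.458 to 2.07), against 453 (4.21%, 3.83 to 4.60) of matched peaks, 1.87% after weighting and 4.00% overall. So 719 of the 756 had no p65 entry within 500 bp in untreated cells of either genotype. The untreated libraries were shallow, and their lowest listed heights were 63.6 (knockout) and 64.3 (wild type), above the height of many of these sites after KLA.

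Within 10 kb the shares were closer. An untreated knockout peak lay within that distance of 115 knockout-only sites (15.2%, 12.7 to 18.0) and 14.5% of matched peaks, or 12.1% after weighting. An untreated wild type peak lay within 10 kb of 58 (7.67%, 5.88 to 9.81) and 7.80% of matched peaks, or 4.39% after weighting. Knockout-only sites were thus within 10 kb of resting p65 peaks at least as often as matched peaks of like tag number. These shares were not recomputed with wild type partners held to the lowest knockout height. Under that setting knockout-only sites no longer had knockout KLA neighbours more often than matched peaks.

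**Figure D4:**
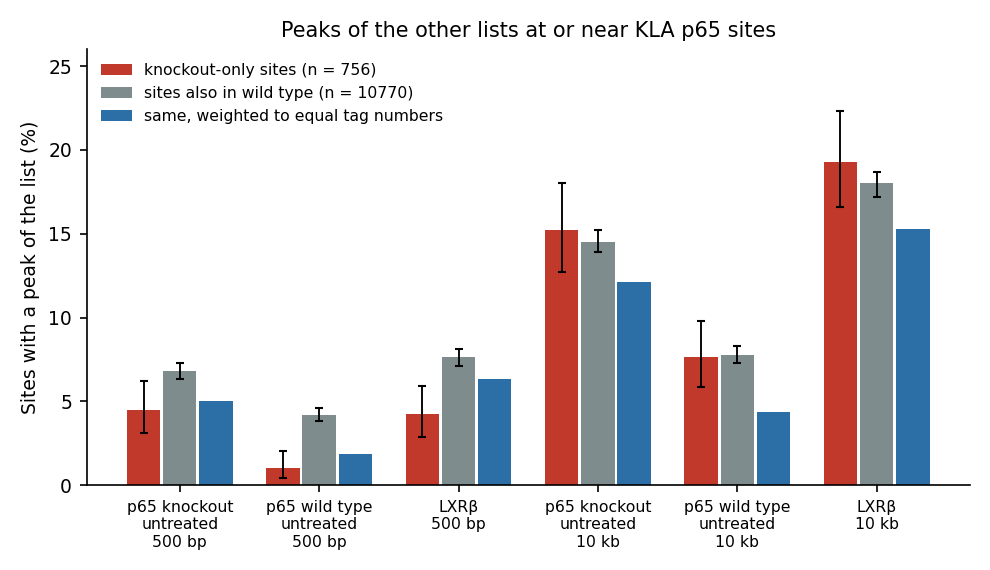
Share of KLA p65 sites with a peak of the untreated p65 lists or the LXRβ list centred within 500 bp (left) or 10 kb (right), for 756 knockout-only sites, 10770 sites also in wild type, and the same sites weighted to the tag numbers of the knockout-only sites. Error bars are exact 95% Clopper-Pearson intervals. Within 500 bp the knockout-only share is the lowest bar of each group, 4.50%, 1.06% and 4.23%.

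At the 34 sites with an untreated knockout peak, heights in knockout cells were from 53.8 to 101.6 after KLA (median 62.8) and from 63.6 to 648.8 untreated (median 76.3). After KLA the height was higher at 6 and lower at 28. The untreated list holds no height under 63.6, so the 17 sites with a KLA height below that had to be lower. Of the 17 above it 6 were higher after KLA (35.3%), against 472 of 617 matched peaks (76.5%). With 11 to 14 tags after KLA it was 4 of 14 knockout-only sites (28.6%) and 98 of 178 matched peaks (55.1%). The counts are small and were not tested.

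The tallest of the 34 after KLA, on chromosome 8 from 90824319 to 90824463, had 101.6 with KLA and 63.6 untreated in knockout cells. Its nearest wild type KLA peak had 47.2 and lay 2383 bp away, and no untreated wild type peak lay within 3323859 bp. On chromosome 17 from 24307795 the heights were 89.6 with KLA and 63.6 untreated, and on chromosome 8 from 121950412 they were 89.6 and 114.5. The site on chromosome 4 from 130469147 had 83.7 with KLA and 114.5 untreated in knockout cells, and an untreated wild type peak of 64.3 lay 19 bp away. At the first 3 of these, within 500 bp, only knockout cells had an entry in the p65 lists, with and without KLA. At the chromosome 17 site wild type peaks lay just beyond, at 1019 bp after KLA and 1053 bp untreated.

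**Figure D5:**
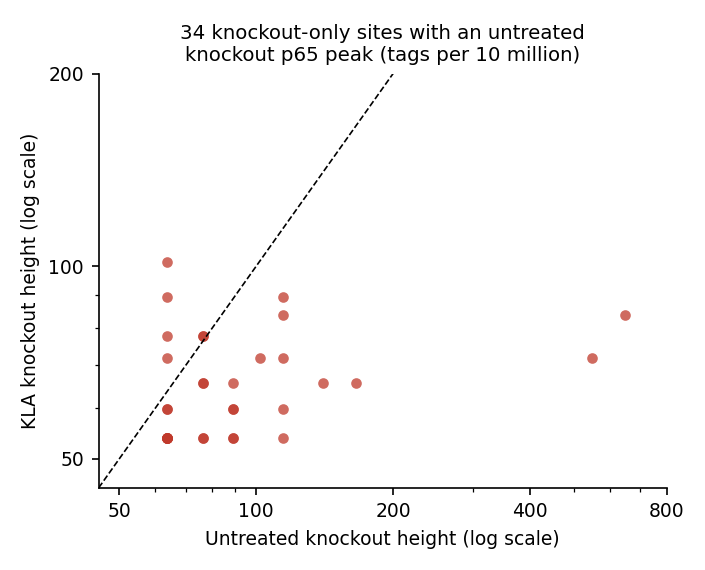
Height after KLA (y axis) against untreated height (x axis) in knockout cells at the 34 knockout-only sites with an untreated knockout peak within 500 bp, in tags per 10000000, both on log scales. The dashed line marks equal heights, and points overlap because heights come in whole tags. Points above the line are the 6 sites higher after KLA, and the 2 points at the far right are those of 547.0 and 648.8 untreated.

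Sites on chromosomes 6 and 9 stood apart, being in every list but the wild type KLA one. On chromosome 6 from 69466297 to 69466441 knockout cells had 71.7 (37.1 to 125.3) after KLA and 547.0 (395.9 to 736.8) untreated. Untreated wild type cells had 218.7 (127.4 to 350.2), and the LXRβ list had 12.7. All 4 centres lay within 3 bp of each other, the fold over local signal was 199.18, 1736.47, 336.31 and 39.36, and no wild type KLA peak lay within 1259439 bp. On chromosome 9 from 62456373 to 62456517 knockout cells had 83.7 (45.7 to 140.4) after KLA and 648.8 (483 to 853) untreated, untreated wild type cells had 128.7 (61.7 to 236.6), and the LXRβ list had 9.1. At both positions the knockout height was several times lower after KLA than before. Scaled input tags at the 2 sites were 0.1 and 0.2 in the knockout KLA list, 0 in both untreated lists and 1.4 and 2.0 in the LXRβ list.

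The 8 sites with an untreated wild type peak included these 2, the tallest site on chromosome 11 and the site on chromosome 4 from 130469147. On chromosome 2 from 174170907 the height was 83.7 in KLA-treated knockout cells and 115.8 in untreated wild type cells, with the nearest untreated knockout peak 1913932 bp away. The others lay on chromosome 11 from 102060651, on chromosome 14 from 121822775 and on chromosome 9 from 3018296. Their heights in KLA-treated knockout cells were 65.7, 53.8 and 71.7, and in untreated wild type cells 115.8, 90.1 and 154.4. The one on chromosome 9 from 3018296 had 2.7 scaled input tags, the highest value of the 756, and a fold over input of 4.39 where 4 was required.

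LXRβ peaks of RAW264.7 cells were also rare at knockout-only sites. One was centred within 500 bp of 32 (4.23%, 2.91 to 5.92), against 822 (7.63%, 7.14 to 8.15) of matched peaks, 6.37% after weighting and 7.41% overall. The interval of the knockout-only sites lay below the weighted share, without replicates to test the difference. When wild type partners had to overlap by 1 bp or more, the knockout-only share was 6.43% (5.13 to 7.94). The matched share was not recomputed under that setting. The LXRβ heights there were from 8.2 to 39.1 with a median of 10.4, against a median of 10.9 at matched peaks and in the whole LXRβ list. Of the 32, 22 were within 100 bp (68.8%), as were 70.8% of those at matched peaks. Within 10 kb the shares were 19.3% (16.6 to 22.3) and 18.0% (17.2 to 18.7), and 15.3% after weighting. The lists come from different cells, so a shared position does not show binding in the same cell.

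The tallest knockout-only sites with LXRβ were the chromosome 17 site from 24307795 (89.6, LXRβ 9.1 at 94 bp) and the chromosome 9 site from 62456373. The next 4 had 77.7 each, and 3 of them lay on chromosome 16 from 23984795, chromosome 19 from 9072144 and chromosome 6 from 121288733. LXRβ peaks of 11.8, 10.0 and 9.1 lay 430, 5 and 461 bp from them. The other tied site, on chromosome 9 from 65400146, had an LXRβ peak of 20.9 at 36 bp. Of the 756 sites, 28 had LXRβ but no untreated p65 peak, 33 had untreated p65 of at least 1 genotype but no LXRβ, 4 had both and 691 had none of these.

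The same rule with the genotypes exchanged gave 1239 wild-type-only sites among 11444 wild type KLA peaks of 50 or more (10.8%), against the 756 knockout-only sites (6.56%). At 75 or more there were 134 knockout-only and 218 wild-type-only sites, and at 100 or more 17 and 44. The tallest had 161.3 and 221.7, and the medians were 59.8 and 56.6. With the lists as deposited, single-genotype entries were not more frequent in knockout than in wild type cells at equal height. The lists had unequal floors, however, and only knockout candidates were filtered against input, which removed 1902 of them. The effect of that filter on the wild-type-only count was not tested. When wild type peaks counted as partners only at or above the lowest knockout height of 29.9, there were 1292 knockout-only sites and still 1239 wild-type-only sites, so that the order of the counts changed.

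For wild-type-only sites the median fold over local signal was 22.4, against 32.7 at the other wild type peaks of 50 or more, and 71.2% of them had a knockout KLA peak within 10 kb. An untreated knockout peak was within 500 bp of 4.50% (3.13 to 6.23) of knockout-only and 3.71% (2.73 to 4.92) of wild-type-only sites. For untreated wild type peaks the shares were 1.06% (0.458 to 2.07) and 1.94% (1.24 to 2.87), and for LXRβ 4.23% (2.91 to 5.92) and 6.21% (4.94 to 7.71). These wild-type-only shares were not weighted by tag number. Nor were they set beside the shares of all wild type KLA peaks of 50 or more. With no peak of the other genotype within 10 kb there were 149 knockout-only sites (19.7%) and 357 wild-type-only sites (28.8%, 26.3 to 31.4).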

How the data were processed

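Peak lists of 5 ChIP-seq libraries were used, with groups from the sample titles and 1 library in each group. The members and comparisons were chosen with earlier results of these data known. The submitters' processing notes name Bowtie 0.12.7, HOMER and build mm9. HOMER's findPeaks ran on each library separately (factor style, false discovery rate 0.001, at most 1 tag per bp), per the file headers. KLA peaks were 144 bp wide for knockout and 132 bp for wild type, so a knockout peak could collect more tags, and the genome size was set to 4000000000 (knockout) and 2000000000 (wild type). The normalized tag count is a signal value deposited by the authors per 10000000 tags. The findPeaks score, the fold over local signal and over input (a ratio), the focus ratio (a fraction) and the scaled input tags (a signal) are the authors' deposited values, used to describe peaks. The tags of a knockout peak are its deposited score. In the wild type KLA list score and height differed by over 0.5 tags at 13561 of 30021 peaks, and heights were used. The heights of the LXRβ list correspond to 0.910 per tag, not to the total of 11758634 in its header.

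Distances between peak centres were computed in pandas 2.3.3 and numpy 2.4.6, and intervals in scipy 1.17.1, under Python 3.11.15. On 6982 simulated sites with planted partners the distance rule recovered 100%. Shares have exact Clopper-Pearson intervals, heights exact Poisson intervals and medians order-statistic intervals, at 95%. Weighted shares average the matched peaks within each tag number by the number of knockout-only sites with it. Named sites were the 10 tallest, the 5 tallest with an untreated knockout, untreated wild type or LXRβ peak, those at the limits and the densest windows, by position among ties. The other 3 with an untreated wild type peak and the sites far from wild type peaks were added after seeing the data. Gene annotation and motifs were not used here. Alternatives changed the distance, the height minimum, the overlap rule, input, chromosomes and the wild type floor.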

Additional observations from a re-analysis of the deposited data

How the results depend on the processing

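Of 88 values recomputed under alternatives, 63 stayed within 1.5 times the reported count or inside the interval of the reported value, and 25 moved. The number of knockout-only sites, 756, became 1244 when partners had to overlap by 1 bp, 1980 and 134 with a lowest height of 40 and 75, 1292 with wild type partners at or above the lowest knockout height, and 149 with no wild type peak within 10 kb. The wild-type-only number, 1239, became 2616 and 218 at heights of 40 and 75 and 357 with no knockout peak within 10 kb. The share with another knockout KLA peak within 10 kb, 75.7%, became 71.2% with a distance limit of 1000 bp, 64.1% and 88.1% at heights of 40 and 75, 62.3% with the raised wild type floor, 66.7% at a fold over local signal of 10 or more, and 16.1% away from wild type peaks. The LXRβ share, 4.23%, became 6.43% under the overlap rule, 6.75% counting LXRβ centres within 1000 bp, and 2.68% away from wild type peaks. The untreated knockout share became 6.35% counting centres within 1000 bp, and the untreated wild type share 2.99% at a height of 75. The share with input signal became 0.181% at a fold over local signal of 10 or more, and 0 away from wild type peaks (0 of 149, with an upper Clopper-Pearson limit of 2.45%) and, by construction, without input peaks. With the raised wild type floor the median fold over local signal of knockout-only sites, 18.9, became 29.8, and with a lowest height of 40 it became 21.9. The median height, 59.8, became 47.8, 83.7 and 53.8 at a lowest height of 40, of 75, and away from wild type peaks. The settings on fold over local signal, on distance from the other genotype and on height per bp were chosen after seeing the data. Fewer sites and other heights follow from the construction of these settings, and other causes were not tested. No paired analysis was possible because each group is 1 library. Depth is a limit, since 73.7% of the sites rest on 9 to 11 tags.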

Other observations

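Below the height of 50 the knockout KLA list held another 4214 peaks with no wild type KLA peak within 500 bp, of 5 to 8 tags. An untreated knockout peak lay within 500 bp of 1.85% of them (1.47 to 2.30), an untreated wild type peak at 0.570% (0.365 to 0.846) and an LXRβ peak at 2.11% (1.70 to 2.59). Their median fold over local signal was 27.4, and 55.3% had a wild type KLA peak within 10 kb. In a window chosen after its values were seen, on chromosome 2 from 29900001 to 30000000 the knockout lists held 5 KLA peaks and 2 untreated peaks, and the wild type lists 2 and 0. The KLA-treated knockout peaks without a wild type partner there had heights of 53.8, 53.8, 35.9 and 77.7, and the single shared peak had 268.9 in knockout and 245.2 in wild type cells. The site of 77.7 lay 570 bp from that wild type peak of 245.2. The other wild type KLA peak, of 37.7 from 29921661, had no knockout KLA peak within 500 bp.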
